A study of Rattus norvegicus with 6 samples.

Results

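Il1b, Tnf, Il6 and Ptgs2 were followed in the spinal cord of rats that carried a scaffold implant 2 weeks after spinal cord injury. They belong to a list of 5 Ensembl gene IDs for proinflammatory cytokines and inducible mediators, chosen with earlier results of these data known, of which 4 are among the 22526 IDs of the deposited table. The fifth, Nos2, the inducible nitric oxide synthase, was not analysed here. The symbols come from that list, because the table gives IDs without gene names.

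The animals were adult female Sprague-Dawley rats, all with a spinal cord injury and all with an implant in it. The 3 A-DON rats had received an optic nerve from which the cells had been removed, carrying Apt19S, an aptamer (a short folded nucleic acid selected to bind a given molecule). The 3 DON rats had received such a decellularized optic nerve without the aptamer. There was no uninjured group and no injured group without an implant, so each difference is that between the scaffold with and without the aptamer. The kind and level of the injury and the segment of cord taken are not stated in the labels or the design text.

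IL-1 beta, TNF and IL-6 are secreted signals of inflammation. After injury of the central nervous system they are made mainly by microglia and by macrophages and neutrophils that enter the tissue, with astrocytes adding IL-6. Ptgs2 encodes cyclooxygenase-2, the inducible enzyme that turns arachidonic acid into the precursor of the prostaglandins, and IL-1 beta and TNF are known inducers of it. Transcription of these genes is switched on by NF-kappaB and partner factors acting at their promoters, and their mRNAs are short-lived.

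The promoters of all 4 genes were found by symbol in the RefSeq table, on build GRCr8, which is not the build named for the expression data. They are shown because the 4 transcripts share regulators in the background above and are compared with one another below. Each line gives the 120 bases before the annotated start, 5′ to 3′ on the gene's strand. Capitals mark a match to one of the motifs searched.
Il1b, chr3:137036582-137036701, minus strand: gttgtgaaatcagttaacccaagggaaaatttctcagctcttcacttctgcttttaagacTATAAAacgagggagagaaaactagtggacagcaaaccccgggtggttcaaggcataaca
Tnf, chr20:3626565-3626684, plus strand: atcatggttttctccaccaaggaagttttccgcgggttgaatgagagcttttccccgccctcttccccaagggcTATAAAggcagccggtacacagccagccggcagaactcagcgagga
Il6, chr4:5894576-5894695, minus strand: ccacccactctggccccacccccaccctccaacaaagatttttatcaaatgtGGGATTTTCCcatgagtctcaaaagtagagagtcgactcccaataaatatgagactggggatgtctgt
Ptgs2, chr13:64713943-64714062, plus strand: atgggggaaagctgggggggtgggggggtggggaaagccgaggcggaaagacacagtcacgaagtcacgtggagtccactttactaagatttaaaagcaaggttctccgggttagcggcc

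The 250 bases before each start were searched on both strands for the TATA box TATAAA, the AP-1 motif TGANTCA and the NF-kappaB consensus, and no match overlapped another. TATAAA lay 60 to 55 bases before the start of Il1b and 46 to 41 bases before that of Tnf, and it occurs in 12.9% of 33469 rat promoters of that length. The NF-kappaB consensus matched 68 to 59 bases before the start of Il6, and 6.33% of promoters hold it. None of these letters occurred in the window of Ptgs2. TGANTCA, held by 6.34% of promoters, was in none of the 4 windows. A match is a description of the sequence and not evidence of binding.

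Libraries held 24961512 to 28911941 recovered reads in A-DON and 29143139 to 31189687 in DON. Levels are normalized counts, that is, reads divided by a size factor for the library, and differences are in log2(normalized count + 1). Across all 19515 genes tested, 35.5% differed between A-DON and DON at an adjusted p under 0.05, 16.6% being lower and 18.9% higher in A-DON (limma, Benjamini-Hochberg over all genes). The median log2 fold change of all tested genes was -0.02. In earlier results of these data A-DON replicate 2 lay between the groups, which was not measured again here over all genes. For that reason the fold changes and the ratios between genes are also given without it. The 16.6%, or 3232 genes, changed in either direction with the library left out. Without A-DON replicate 3, 1 gene was called lower in A-DON, and without A-DON replicate 2, 4855 genes were. The table pairs no other ID with a name, so markers of cord, microglia, neutrophils or other cells were not analysed here.

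Il1b, Tnf and Ptgs2 had a log2 fold change below 0, as had 51.1% of tested genes, and of these only Ptgs2 passed the test. Il6 did not pass it either. Il6 has at most 6 reads in a library and entered the test mainly through DON, so its direction is not counted. Ptgs2 was the only one of the 4 genes whose A-DON values all lay below the DON values, a pattern that 27.9% of tested genes showed. Il1b and Tnf had very low levels in A-DON replicates 1 and 3. In A-DON replicate 2 their level was within the DON range, as it was for 31.9% of tested genes, and neither passed the test with all libraries. In whole tissue, fewer cells of a type and less RNA per cell cannot be told apart.

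**Figure D1:**
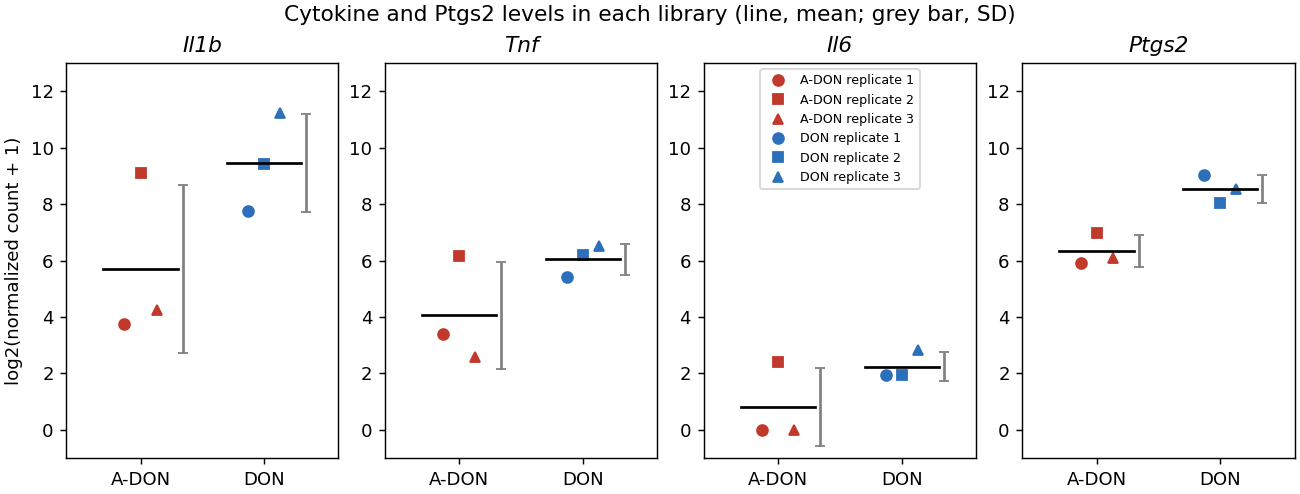
Log2(normalized count + 1) of Il1b, Tnf, Il6 and Ptgs2 in each A-DON and DON library (points), with the group mean (black line) and SD (grey bar, n = 3). A-DON replicate 2, the red square, lies among the DON libraries for Il1b, Tnf and Il6, and below them for Ptgs2.

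Il1b (ENSRNOG00000004649) encodes IL-1 beta, which is made as an inactive precursor and cut by caspase-1 in inflammasomes. It had 12.5, 551.3 and 17.8 normalized counts in A-DON replicates 1, 2 and 3, against 213.5, 691.2 and 2394 in DON replicates 1, 2 and 3. A-DON replicates 1 and 3 were far below every DON library, and A-DON replicate 2 lay between DON replicates 1 and 2. The mean was 193.9 ± 310 in A-DON and 1099 ± 1146 in DON (SD, n = 3 each).

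Il1b had a log2 fold change of -3.77 ± 1.62 (standard error) and a 95% interval from -7.72 to 0.19 (limma adjusted p = 0.112). Only 0.564% of tested genes had a lower log2 fold change, so that the size was extreme while the call was not made. The spread within groups was as unusual. The SD of Il1b on the log2 scale was 2.96 in A-DON and 1.74 in DON, larger than that of 99.4% and 97.5% of tested genes in the same group. Within DON alone the highest library exceeded the lowest 11.2-fold.

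Tnf (ENSRNOG00000055156) encodes tumour necrosis factor, which is made on the cell membrane and shed by a metalloprotease. It had 9.63, 71.2 and 4.94 normalized counts in A-DON replicates 1, 2 and 3, against 41.9, 72.5 and 89.9 in DON replicates 1, 2 and 3. These rest on 10, 66 and 5 reads in A-DON and on 44, 76 and 89 reads in DON. Again A-DON replicates 1 and 3 were below every DON library, while A-DON replicate 2 lay within the DON range, next to DON replicate 2.

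The mean of Tnf was 28.6 ± 37.0 normalized counts in A-DON and 68.1 ± 24.3 in DON (SD, n = 3 each). This is a log2 fold change of -1.99 ± 0.96 (standard error), with a 95% interval from -4.32 to 0.34 (limma adjusted p = 0.144). Tnf varied less than Il1b among the DON rats, 2.14-fold between the lowest and the highest. Its log2 SD in DON was 0.56, and 72.9% of tested genes had a smaller one. In A-DON the log2 SD was 1.89, above that of 96.5% of tested genes.

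Il6 (ENSRNOG00000010278) encodes IL-6, which signals through its receptor and a shared signal-transducing chain to STAT3. It was close to the limit of detection in every library, with 0, 4 and 0 reads in A-DON replicates 1, 2 and 3, against 3, 3 and 6 reads in DON replicates 1, 2 and 3. The reads summed to 4 in A-DON and 12 in DON. A count of 0 allows up to 3 reads, or 1.04e-05% of the reads of A-DON replicate 1 and 1.06e-05% of those of A-DON replicate 3, for counting error only. DON replicates 1 and 2 are at that limit themselves, so no fold is given.

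Il6 passed the filter on low values through 3 of 3 DON libraries and 1 of 3 A-DON libraries, whereas the other genes passed it in every library. Its limma adjusted p was 0.189. The A-DON replicates without reads were those with the lowest Il1b and Tnf, and the library with 4 reads was the one with the highest. With at most 6 reads in a library, no size of a difference in Il6 between A-DON and DON could be given.

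Ptgs2 (ENSRNOG00000002525), the cyclooxygenase-2 gene, had 59.7, 126.2 and 67.2 normalized counts in A-DON replicates 1, 2 and 3, against 523.3, 265.1 and 370.8 in DON replicates 1, 2 and 3. The groups did not overlap, and the highest A-DON library had less than the lowest DON library. The mean was 84.4 ± 36.4 in A-DON and 386.4 ± 130 in DON (SD, n = 3 each). The log2 fold change came to -2.21 ± 0.39 (standard error), with a 95% interval from -3.15 to -1.26 (limma adjusted p = 0.0143), which is 4.62-fold lower in A-DON on the log2(normalized count + 1) scale.

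With all 6 libraries and no block for the replicate number, Ptgs2 was thus called lower in A-DON, as one of the 16.6% of tested genes that were. Its spread was not unusual: the log2 SD was 0.57 in A-DON and 0.49 in DON, and 75.5% and 68.5% of tested genes had smaller ones. The call was lost without A-DON replicate 1 (limma adjusted p = 0.0642), A-DON replicate 3 (0.0682) or DON replicate 3 (0.0545), at log2 fold changes of -2.001, -2.085 and -2.209. It was also lost with the replicate number as a block (0.0706), where no gene passed. The call held without A-DON replicate 2 (limma adjusted p = 0.00334), DON replicate 1 (0.0359) or DON replicate 2 (0.0221). All of these fits have fewer residual degrees of freedom than that of all 6 libraries. Why the call was lost in some of them was not tested.

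The calls of Il1b and Tnf changed when A-DON replicate 2 was left out. Without it the log2 fold change was -5.47 for Il1b (limma adjusted p = 0.00952) and -3.05 for Tnf (0.00611), and both passed the test, as did Ptgs2 at -2.53 (0.00334). In that comparison 47.6% of all tested genes passed it and 24.9% were lower in A-DON. Il6 then had no read in either remaining A-DON library, so that its fitted value is set by the pseudocount and is not counted here. Leaving out any other single library left Il1b and Tnf short of the threshold. A-DON replicate 2 had the highest A-DON level of both genes and was singled out from earlier results of these data. That both pass without it follows in part from this choice and is no support for a difference.

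**Figure D2:**
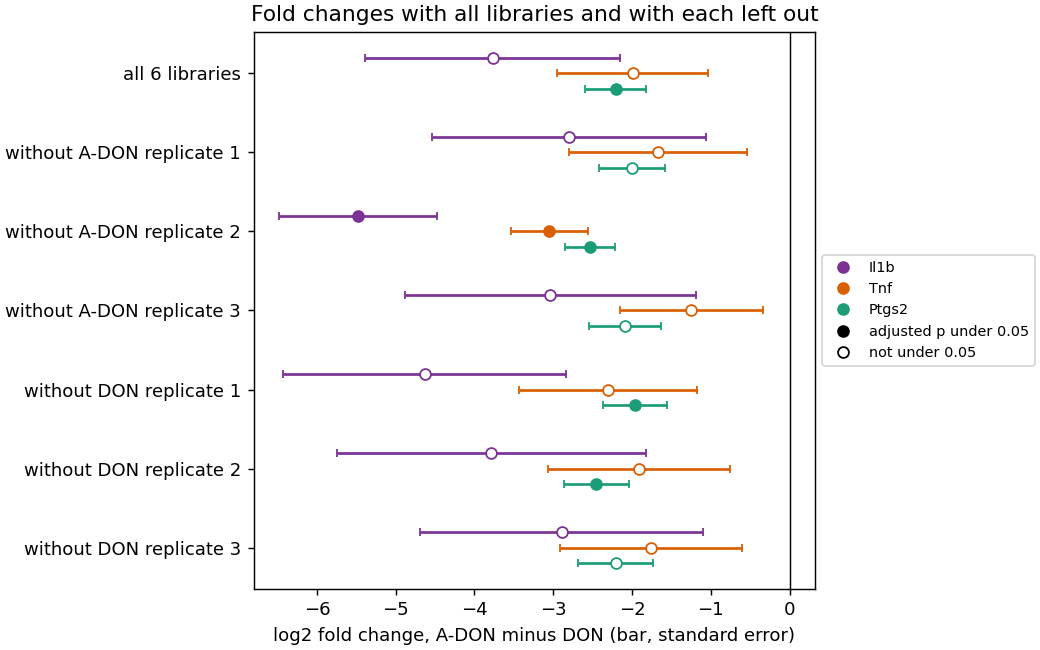
Log2 fold change (A-DON minus DON, horizontal axis) with its standard error for Il1b, Tnf and Ptgs2, with all 6 libraries and with each library left out. Filled points have a limma adjusted p under 0.05. All values are below 0, and Il1b and Tnf are filled only without A-DON replicate 2.

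The place of A-DON replicate 2 between the groups was computed for each gene. The linear scale had 0 for the mean of DON and 1 for the mean of A-DON replicates 1 and 3. On it, A-DON replicate 2 stood at -0.05 for Tnf, beside DON, at 0.51 for Il1b and at 0.81 for Ptgs2. The place for Il6, -0.10, rests on at most 6 reads in a library and is given as a value only. The SD of the DON libraries, in the same units, was 0.40 for Tnf, 0.47 for Il6, 1.06 for Il1b and 0.40 for Ptgs2. The place of Il1b was within 1 such SD of those of Tnf and Ptgs2. This SD is not the error of a place, which was not computed, so no difference between the places was tested. On the log2 scale the places were -0.04 for Tnf, -0.08 for Il6, 0.07 for Il1b and 0.61 for Ptgs2. The place of Il1b thus depended on the scale, and also on DON replicate 3. Without that library the places on the linear scale were -0.28 for Tnf, -0.51 for Il6, -0.23 for Il1b and 0.81 for Ptgs2.

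For comparison, 2185 genes had A-DON replicates 1 and 3 below every DON library, at least 4-fold by their means, and a DON mean of at least 10 normalized counts. A-DON replicate 2 had no part in that choice, so its place nearer to DON can follow in part from the choice. No such set was drawn with another library left free. The median place of the 2185 genes on the linear scale was 0.52 (quartiles 0.36 and 0.66), and 47.8% of them stood lower than Il1b. On the log2 scale their median was 0.27 (quartiles 0.14 and 0.39), and Il1b, at 0.07, was below the lower quartile. On the linear scale Tnf stood lower than all but 7.14% of them, and Ptgs2 higher than all but 9.06%. A-DON replicate 2 was within or above the DON range in 30.4% of these genes, Il1b and Tnf among them. A-DON replicate 2 also had the smallest total, 24961512 reads, and its part in these values was not tested.

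**Figure D3:**
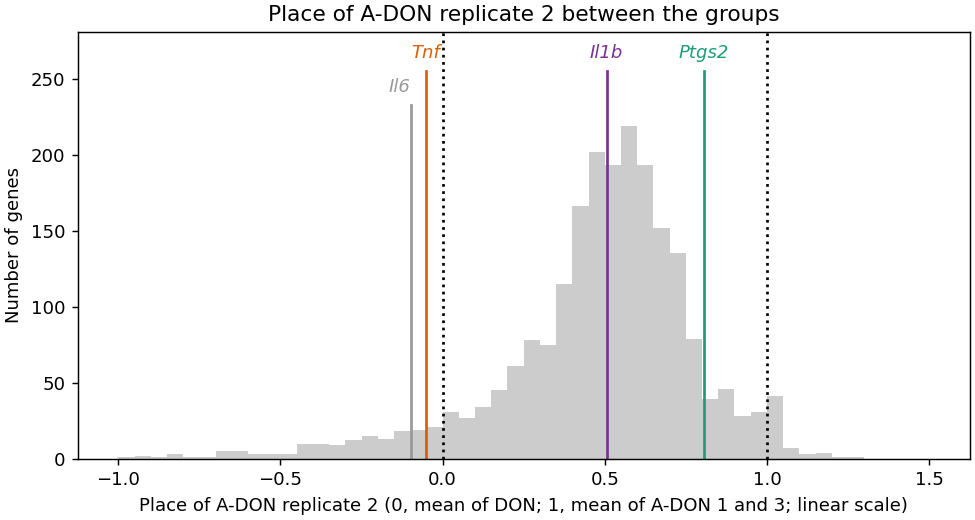
Number of genes (vertical axis) by the place of A-DON replicate 2 between the mean of DON (0) and the mean of A-DON replicates 1 and 3 (1), on the linear scale, for the 2185 comparison genes, of which 24 lie outside the plotted range. Coloured lines mark Il6 (not among the 2185, for its low counts), Tnf, Il1b and Ptgs2. Il1b is near the peak, with Tnf and Ptgs2 on either side.

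The cytokine genes and Ptgs2 also ordered the DON rats differently. Il1b and Tnf were lowest in DON replicate 1 and highest in DON replicate 3, and Il6 had its most reads in DON replicate 3. Ptgs2 was highest in DON replicate 1 and lowest in DON replicate 2. Among A-DON rats, all 4 genes were highest in replicate 2, as were 38.6% of tested genes.

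Ratios between genes within a library do not depend on how libraries are scaled, and only their differences between libraries are compared here. The log2 ratio of Il1b to Ptgs2 was -2.25, 2.13 and -1.92 in A-DON replicates 1, 2 and 3, against -1.29, 1.38 and 2.69 in DON replicates 1, 2 and 3. Its mean was 1.61 lower in A-DON, and the groups overlapped through A-DON replicate 2 (two-sided exact permutation p = 0.4, adjusted over 3 pairs 0.6). Without that library A-DON lay below DON, with a difference of -3.01 in the mean. It was left out after the values were seen, so this separation follows from the choice and was not tested. The log2 ratio of Tnf to Ptgs2 was -2.63, -0.83 and -3.77 in A-DON, against -3.64, -1.87 and -2.04 in DON. Those groups overlapped with and without A-DON replicate 2, at differences of -0.68 without it and 0.11 with it (exact permutation p = 1 with it, adjusted 1).

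The log2 ratio of Il1b to Tnf was 0.38, 2.95 and 1.85 in A-DON replicates 1, 2 and 3, against 2.35, 3.25 and 4.73 in DON replicates 1, 2 and 3. It averaged 1.73 ± 1.29 in A-DON and 3.45 ± 1.20 in DON (SD, n = 3 each; exact permutation p = 0.2, adjusted 0.6). Without A-DON replicate 2, A-DON lay below DON here too, with a difference of -2.33 in the mean. This separation also follows from the choice of the library left out and was not tested. The smallest p that 3 rats against 3 allow is 0.1, so these tests could not have passed a threshold of 0.05 and leave undecided whether Il1b, Tnf and Ptgs2 differ in their fold change.

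**Figure D4:**
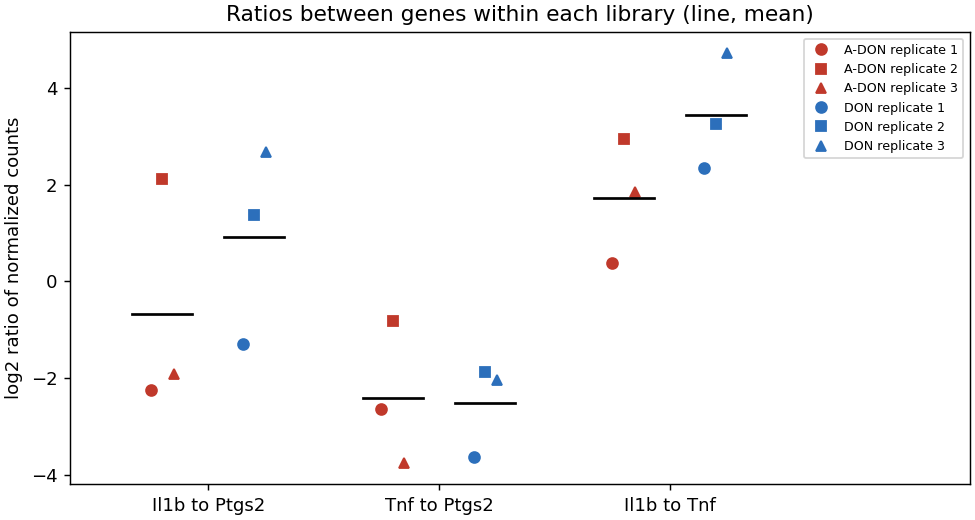
Log2 ratio of the normalized counts of Il1b to Ptgs2, Tnf to Ptgs2 and Il1b to Tnf in each A-DON and DON library (points), with group means (lines). The A-DON and DON points overlap in all 3 pairs, for Il1b to Ptgs2 and Il1b to Tnf through A-DON replicate 2 alone, and A-DON replicate 2 has the highest ratio of the A-DON libraries in each.

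Over the 6 log2 values, the pattern of Il1b was closer to that of Tnf than to that of Ptgs2. Of the 19514 other tested genes, 1.01% had a higher Pearson r with Il1b than Tnf did, and 21.0% a higher one than Ptgs2. For Il6 the share was 0.359%, but Il6 rests on 0 to 6 reads in a library and passed the filter mainly through DON. Its share is therefore not counted here. The libraries form 2 groups, so a gene that is lower in A-DON can gain a higher r from that difference alone. The shares are a description of these libraries only. Among genes at or above the median level, the closest to Il1b were ENSRNOG00000013820 and ENSRNOG00000009832, which the table does not name.

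ENSRNOG00000013820 had 47.2, 937.5 and 43.5 normalized counts in A-DON replicates 1, 2 and 3, against 459.4, 1019 and 3305 in DON replicates 1, 2 and 3. ENSRNOG00000009832 had 585.3, 1438 and 663.4 in A-DON, against 1129, 1660 and 2509 in DON. Since they were picked for their likeness to Il1b over these same values, their order of libraries is a description only.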

How the data were processed

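Stranded mRNA libraries of spinal cord from 6 rats were sequenced, per the labels' protocols. Build rn6, StringTie 1.3.1c, STAR 2.5.3a and FastQC 0.11.2 are listed without roles, per the submitters' processing notes. No label states the read counter, its strand setting or the annotation. The values deposited are log2 values. With the log2 undone and 1 subtracted, 100% of values were whole multiples of 1 step per library (tolerance 0.05 reads), and the inverse steps equalled the median-of-ratios size factors, so the values are log2(reads / size factor + 1), which understates changes of low genes. Counting limits cover counting error only, as no molecular identifiers are mentioned.

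The 19515 genes that reached 1 normalized count in 3 or more libraries were tested with limma 3.58.1 (R 4.3.3, statmod 1.5.0; group alone, intensity trend, robust moderation; two-sided; Benjamini-Hochberg over all genes, threshold 0.05). Replicates are separate rats, and no 2 libraries agreed within sampling noise (chi-square per degree of freedom of 21.9 or more in 15 pairs, over genes with 10 reads in the pair). Same-numbered rats did not vary alike and were not paired. None of the 22526 IDs was found in the RefSeq gene table (47357 genes), so lists of related genes and cell markers set down by symbol gave no value. The named genes are the listed members and the 2 IDs most like the member of highest level. The members and lists were chosen with earlier results of these data known, and the ratios with their values without A-DON replicate 2, and the comparison genes for that library and their log2 scale, after the values were seen. Figures were drawn with matplotlib 3.10.9 (Python 3.11.15). Alternatives were quantile and total-count scaling, no filter, a mean of at least 5, a pseudocount of 0.1, plain limma, voom on the recovered reads, a block for the replicate number, and each library left out in turn.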

Additional observations from a re-analysis of the deposited data

How the results depend on the processing

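Il1b, Tnf and Ptgs2 kept a negative log2 fold change under all settings run (14 each), as did the fitted value of Il6 (13; a mean of at least 5 removed it). Changed scaling, filter, pseudocount, moderation or voom changed no call of the 4. Adding the replicate block to the model left 0 genes past the threshold (0 of them lower in A-DON; limma; 7601 at an unadjusted p under 0.05), and Ptgs2, at -2.21, had an adjusted p of 0.0706. The block costs residual degrees of freedom, and deviations from the group means were not shared by same-numbered rats (r = -0.17, -0.24 and -0.083). Leaving out 1 library gave 12 to 9286 genes past the threshold, 1 to 4855 of them lower in A-DON, against 6930 and 3232 with all libraries, and 0 to 4 of the 4 genes, the 4 counting Il6. A-DON replicate 3 gave the fewest when left out, A-DON replicate 2 the most. Log2 fold changes then ran from -5.47 to -2.80 for Il1b, -3.05 to -1.25 for Tnf and -2.53 to -1.96 for Ptgs2. The fitted values of Il6, -2.24 to -1.03, and -3.42 with a pseudocount of 0.1, are set by the pseudocount in its libraries without reads and are neither folds nor bounds. The places of A-DON replicate 2 moved by less than the spread of DON under both scalings and without any DON library. That spread is not the error of a place, so this does not show that the places are stable. For Il1b the spread was 1.06, and its place went from 0.51 to -0.23 on the linear scale without DON replicate 3. The lists of related genes gave no value under any setting. Il6 rests on 0 to 6 reads in a library.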
